A study of Homo sapiens with 16 samples.

Results

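The human HOX genes are 39 homeobox genes in 4 clusters, and they were taken here as all genes whose symbol is HOX followed by the cluster letter A, B, C or D and a number. They are 39 of the 61906 genes in the deposited tables, with 11 in HOXA on chromosome 7, 10 in HOXB on chromosome 17, 9 in HOXC on chromosome 12 and 9 in HOXD on chromosome 2. Their numbers run over 13 paralog groups, and the tables list 111 transcripts for them, from 1 per gene to 13 for HOXB3.

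HOX proteins are DNA-binding transcription factors that give cells along the body axis their regional identity. Genes at the low-numbered end of a cluster are active early and towards the head, those at the high-numbered end later and towards the tail and the limb tips, and adult cells keep a HOX pattern that reflects where their tissue came from. Polycomb complexes hold silent HOX genes repressed, trithorax-type MLL complexes keep active ones on, and PBX and MEIS proteins of the TALE family bind DNA together with HOX proteins.

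The study transfected HEK-293T cells (a human embryonic kidney line that expresses SV40 large T antigen) and HT-1080 cells (a human fibrosarcoma line) with 20 nM of a small interfering RNA. One siRNA, siHNRNPH1, was directed at HNRNPH1, which codes for an RNA-binding protein that regulates splicing. The other, siNegative, served as the control, and the cells were harvested for RNA after 48 h. There were 3 biological replicates in each of the 4 groups, sequenced as 12 short-read libraries, and 1 full-length cDNA (IsoSeq) pool per group. Both groups of a line carry the same transfection, neither line has an untransfected group here, and no time point other than 48 h was used.

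Library totals were at least 107.7 M expected counts in HEK-293T and 27.3 to 32.7 M in HT-1080 (M, mega), so a HOX gene at 3 counts sat at about 0.0248 to 0.0278 CPM in HEK-293T and at 0.0919 to 0.110 CPM in HT-1080. CPM is a gene's expected counts over those of its library in M, and is not scaled for transcript length. HNRNPH1 was 1111 ± 8.76 CPM (SD, n = 3) in HEK-293T siNegative and 335 ± 87.7 CPM in siHNRNPH1, and 619 ± 14.5 against 230.3 ± 1.61 CPM in HT-1080. The 7 HT-1080 markers summed to 8165 to 8314 CPM in HT-1080 siNegative and to at most 21.8 CPM in HEK-293T siNegative. The 7 HEK-293T markers summed to 602 to 630.0 CPM in HEK-293T siNegative and 231 to 252 CPM in HT-1080 siNegative, where NEFL and LHX1 were above their HEK-293T level. Markers of leukocytes, endothelium, hepatocytes and squamous epithelium summed to at most 0.306 CPM in any library. HEK-293T siHNRNPH1 replicate 1 stood apart from the other replicates of its group, and HNRNPH1 was lowest there. The HEK-293T changes of named genes are therefore given with and without replicate 1. HNRNPH1 changed by -1.76 ± 0.20 (SE, adjusted p = 0.00939) on the log2 scale in HEK-293T, by -1.58 ± 0.030 without that library, and by -1.49 ± 0.042 (SE, adjusted p = 6.76e-09) in HT-1080. A smaller chi-square gap set HT-1080 siNegative replicate 2 apart, at 17.76 and 17.37 against replicates 1 and 3, beside 1.778 between those.

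In the siNegative libraries, HEK-293T expressed more of the HOX repertoire than HT-1080. Over 1 CPM in every siNegative library were 34 of the 39 HOX genes in HEK-293T and 27 in HT-1080. Genes of all kinds over 1 CPM were not counted, so this gap is not shown to be particular to HOX genes. The filter on low counts, a different criterion, kept 19966 genes of any kind for the HEK-293T siRNA test and 16145 for that of HT-1080. Of the HOX genes it kept 38 and 28. All HOX genes together summed to 773 ± 12 CPM (SD, n = 3) in HEK-293T and to 423 ± 13.2 CPM in HT-1080. HOXD set the lines apart most, at 174 ± 2.97 CPM in HEK-293T and 18.4 ± 1.03 CPM in HT-1080. HOXA came to 325 ± 5.47 and 205 ± 7.47 CPM, HOXB to 199 ± 4.31 and 137 ± 3.40 CPM, and HOXC to 73.8 ± 0.859 and 63.3 ± 1.64 CPM. The ratio of the HOXC sums, HT-1080 over HEK-293T, was 0.858, and 1.00 on TMM-scaled library sizes. Within the HOX counts, HOXD held 22.5 ± 0.0361% in HEK-293T and 4.36 ± 0.125% in HT-1080, while HOXA held 42.1 ± 0.276% and 48.4 ± 0.437%. Summed CPM is a description, with no test. In bulk RNA, fewer cells that express a gene and less RNA of it per cell cannot be told apart.

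**Figure D1:**
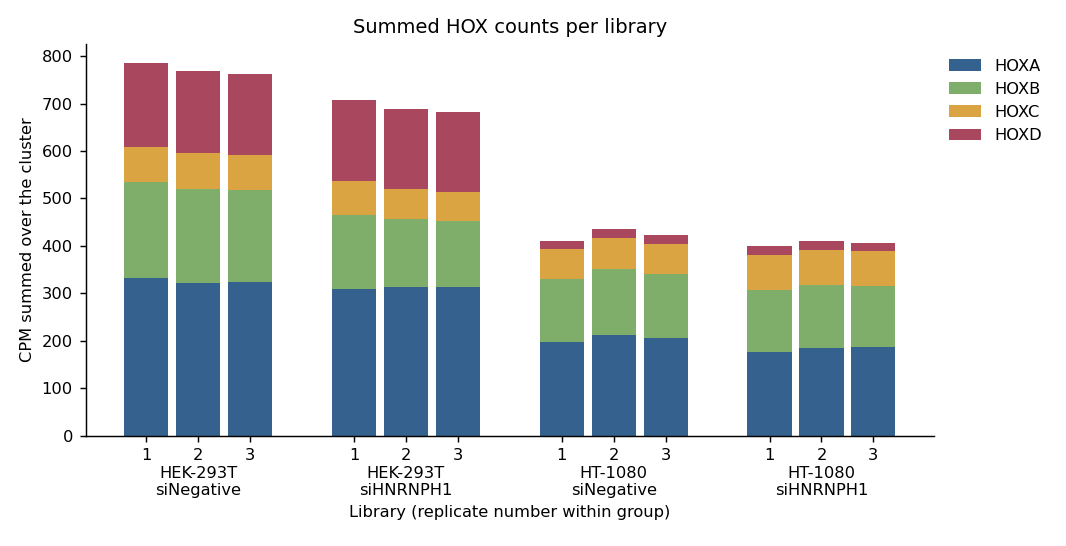
CPM summed over the genes of each HOX cluster (y axis), stacked, in each of the 12 short-read libraries (x axis, replicate number within group). The HOXD block is tall in all 6 HEK-293T libraries and thin in all 6 HT-1080 libraries, where its group means were 18.4 and 18.3 CPM.

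Between the lines, 36 of the 38 HOX genes tested differed, 25 lower and 11 higher in HT-1080, at an adjusted p under 0.05 (edgeR quasi-likelihood test, Benjamini-Hochberg adjustment over all genes tested). Of all 19776 genes tested, 86.6% differed, 45.8% lower and 40.8% higher, so that the share that differed says little about HOX genes. Their median log2 difference (HT-1080 over HEK-293T) was -1.21, beside -0.10 over all genes tested. Setting the 3 tested genes at 0 in HT-1080 to their bounds could not move it, as the bounds also lie below it. These differences are on TMM-scaled counts. Scaling by library size alone moved the median of all genes from -0.10 to -0.36, and HOXA9 and HOXB8 then also passed, while HOXD8 no longer passed. Line, sequencing depth and deposited table cannot be told apart in this comparison. By position, 6 of 7 tested genes of groups 1 to 3 and 12 of 16 of groups 9 to 13 were lower in HT-1080, and those of groups 4 to 8 were split, with 7 lower and 7 higher of 15.

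**Figure D2:**
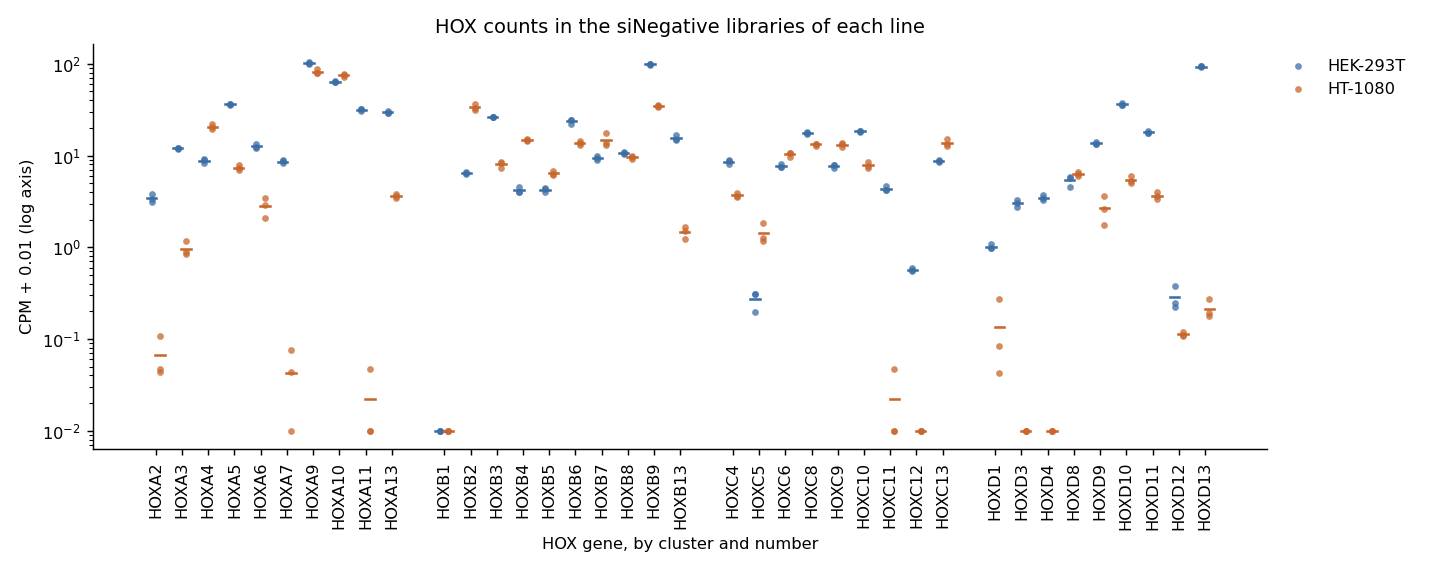
CPM + 0.01 on a log axis (y) for the HOX genes by cluster and number (x) in the siNegative libraries, with 1 point per library and a bar at the mean of 3. HOXA2, HOXA7, HOXA11, HOXC11, HOXC12, HOXD3, HOXD4 and HOXD13 lie far lower in HT-1080, at 8 counts or fewer in each library plotted, and HOXB2, HOXB4 and HOXA4 lie higher in HT-1080 than in HEK-293T.

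The genes that HEK-293T transcribed and HT-1080 had at or near 0 came from 3 clusters. HOXD13, which patterns the limb tips and the hind end of the body, was 94.2, 94.5 and 91.4 CPM in the HEK-293T siNegative libraries and had 5, 5 and 8 counts in those of HT-1080, a log2 difference of -8.56 ± 0.10 (SE, adjusted p = 1.48e-12). HOXA11, a limb and uterus patterning gene, was 32.5, 32.4 and 30.4 CPM in HEK-293T and had 1, 0 and 0 counts in HT-1080. HOXA7 was 8.64, 8.86 and 8.23 CPM against 0, 1 and 2 counts, and none of these genes overlapped between the lines.

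HOXA2, a head-end gene of the hindbrain and second pharyngeal arch, was 3.84, 3.32 and 3.13 CPM in HEK-293T and had 1, 1 and 3 counts in HT-1080. HOXC11 was 4.24, 4.64 and 4.2 CPM against 1, 0 and 0 counts. The other genes of this kind had no count in any HT-1080 siNegative library. Against a floor of 3 counts per library, HOXD3 was at least 29.2-fold higher in HEK-293T, HOXD4 at least 33.6-fold and HOXC12 at least 5.44-fold. HOXD3 and HOXD4 were also at 0 in all 3 HT-1080 siHNRNPH1 libraries. HOXB1, the most head-end HOXB gene, had no count in any siNegative library of either line.

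HOXD8 stood against the rest of its cluster. It was 5.88, 4.53 and 5.66 CPM in HEK-293T and 6.26, 6.57 and 5.91 CPM in HT-1080, the 1 HOXD gene that passed as higher in HT-1080 (log2 0.48 ± 0.11 SE, adjusted p = 0.0029). The lines did not overlap, but the highest HEK-293T and the lowest HT-1080 value were almost equal. The HOXD genes next to it on the high-numbered side were lower in HT-1080. HOXD9 was 13.6 ± 0.327 against 2.67 ± 0.949 CPM, and HOXD10, which patterns the lumbar spinal cord and hindlimb, 36.1 ± 1.35 against 5.47 ± 0.520 CPM.

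HOXB2, HOXB4, HOXA4, HOXC5, HOXC9 and HOXB7 were the 6 genes furthest higher in HT-1080. HOXB2, which acts in the hindbrain, was 6.36, 6.50 and 6.6 CPM in HEK-293T and 31.1, 36.2 and 33.2 CPM in HT-1080, a log2 difference of 2.62 ± 0.067 (SE, adjusted p = 1.91e-10). HOXB4, a regulator of blood stem cell self-renewal, was 4.50, 4.03 and 4.03 against 14.7, 14.3 and 15.1 CPM (log2 2.07 ± 0.068 SE, adjusted p = 1.21e-09). HOXA4 was 9.06, 8.23 and 8.94 against 19.5, 22.1 and 20.3 CPM (log2 1.5 ± 0.068 SE, adjusted p = 1.31e-08). For each of these genes every HT-1080 library was above every HEK-293T library.

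HOXC5 differed by 2.66 ± 0.27 (SE, adjusted p = 7.67e-06) but was low in both lines, at 0.264 ± 0.0649 and 1.42 ± 0.374 CPM. HOXC9 differed by 1.04 ± 0.067 (SE, adjusted p = 2.08e-07) and HOXB7 by 0.91 ± 0.11 (SE, adjusted p = 2.06e-05). HOXA9, a leukaemia-associated gene of the posterior axis, had the most HOX counts in both lines and did not pass, at 102 ± 1.96 against 82.4 ± 4.95 CPM (log2 -0.05 ± 0.052 SE, adjusted p = 0.345). Its neighbour HOXA10, needed for uterine development, passed as higher in HT-1080 on TMM-scaled counts (log2 0.49 ± 0.044 SE, adjusted p = 2.48e-06), at 63.9 ± 0.667 against 75.2 ± 2.89 CPM. HOXC8 passed as lower in HT-1080 but not without HEK-293T siNegative replicate 2 or 3, and HOXD12, at 3 counts in each HT-1080 siNegative library, not without any 1 of the 6 libraries.

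Of the other genes with many counts in HEK-293T, HOXB9, a thoracic-level gene, was 98.7 ± 1.48 CPM there and 34.7 ± 0.903 CPM in HT-1080 (log2 -1.25 ± 0.042 SE, adjusted p = 1.27e-09). HOXA5, which acts in lung development, was 36.2 ± 0.395 against 7.33 ± 0.426 CPM, and HOXA13, which patterns hand, foot and genital structures, 29.5 ± 1.03 against 3.63 ± 0.191 CPM. Both passed as lower in HT-1080, with log2 differences of -2.05 ± 0.056 and -2.77 ± 0.067. Of the rest, HOXB13, a prostate and tail-end gene, was 15.5 ± 1.09 against 1.45 ± 0.216 CPM, HOXD11 17.9 ± 0.511 against 3.62 ± 0.317 CPM and HOXB3 26.4 ± 0.215 against 8.0 ± 0.586 CPM, and all 3 passed as lower. HOXC13, a hair and nail gene, was 8.73 ± 0.289 against 13.7 ± 1.31 CPM and passed as higher (log2 0.91 ± 0.076 SE, adjusted p = 1.54e-06).

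The sequences just before the starts of some of these genes are shown to set the silent and active promoters side by side. They are the 30 bases that end at each RefSeq transcription start on GRCh38.p14, written 5′ to 3′ on the gene's strand, with each CG dinucleotide in capitals. The reference table held 27 promoters of 20 of the 39 HOX genes. HOXA7, HOXA11 and HOXD4 were at or near 0 in HT-1080, HOXD8 was transcribed in both lines, and HOXA9 and HOXA10 carry the transcript results further on.
HOXA7 (chr7:27156676-27156705, minus strand): tggCGgaggCGgtcatgtgggCGgtcaCGt
HOXA9 (chr7:27165538-27165567, minus strand): cttattaggtgactgtacttccccccCGgt
HOXA10 proximal start (chr7:27174321-27174350, minus strand): tgCGgggggattgctaatCGtattcagcat
HOXA10 distal start (chr7:27179862-27179891, minus strand): tgtcaaagcCGcCGgggagcCGggaacccc
HOXA11 (chr7:27185233-27185262, minus strand): atttccaCGtcagcttaCGtctccaaattt
HOXD8 (chr2:176129675-176129704, plus strand): ggcCGtagCGactgaactgCGCGCGgatcc
HOXD4 (chr2:176151520-176151549, plus strand): gcctggtcacatggctgcccaactttattc

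A CG occurred in this window in 21 of the 27 HOX promoters (77.8%) and in 65.3% of all 35116 promoters. Over 300 bases (250 before and 50 after the start), the observed over expected CG ratio had a median of 0.849 in HOX promoters and 0.579 in all. It was 0.906 at HOXA7, 0.674 at HOXA11, 0.244 at HOXD4 and 0.887 at HOXD8. Of the other genes named above as at or near 0 in HT-1080 alone, HOXA2 had 0.706, HOXD3 0.991 and HOXD13 0.6. HOXC11 and HOXC12 had no promoter in the reference table. Among these silent genes only HOXD4 lay below the median of all promoters. HOXB1, without a siNegative count in either line, had 0.436. The 2 HOXD4 transcript models of the HEK-293T siNegative IsoSeq pool began at chromosome 2 position 176150390, upstream of the HOXD4 window. The HOXD4 letters and ratio thus describe the RefSeq start and not the start of these models. A match is a description of the letters and no methylation was measured here.

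In HEK-293T, siHNRNPH1 was followed by higher HOXA2, HOXA5, HOXA7 and HOXB8 and lower HOXA9, HOXB4, HOXB9 and HOXD4. These are 8 of the 38 HOX genes tested (21.1%), beside 10% of all 19966 genes tested (5.12% higher and 4.88% lower). The median log2 change of the HOX genes was -0.16, beside 0.02 over all genes, and -0.08 without siHNRNPH1 replicate 2. By position, 2 genes of groups 9 to 13 fell and none of the 16 rose, while 3 of the 15 of groups 4 to 8 rose and 2 fell. Without siHNRNPH1 replicate 1, 10 genes of groups 9 to 13 fell and 1 rose, 7 genes of groups 4 to 8 fell and 4 rose, and the median was -0.11.

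HOXB9 moved furthest. It was 99.8, 99.3 and 97.0 CPM in siNegative and 42.9, 43.4 and 40.4 CPM in siHNRNPH1, a log2 change of -1.25 ± 0.11 (SE, adjusted p = 0.00611). HOXA9 was 104, 99.9 and 103 CPM and then 53.4, 59.6 and 62.3 CPM (log2 -0.83 ± 0.11 SE, adjusted p = 0.0125). Both genes fell in every siHNRNPH1 library, with no overlap between the groups. Without siHNRNPH1 replicate 1 the changes were -1.29 ± 0.037 and -0.80 ± 0.035.

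HOXB4 was 4.50, 4.03 and 4.03 CPM in siNegative and 2.45, 2.58 and 2.30 CPM in siHNRNPH1 (log2 -0.80 ± 0.13 SE, adjusted p = 0.0201). HOXD4 was 3.23, 3.41 and 3.73 and then 1.61, 2.36 and 2.07 CPM (log2 -0.81 ± 0.17 SE, adjusted p = 0.0349). These paralogs of group 4 fell in all 3 libraries, with changes of -0.83 ± 0.10 and -0.70 ± 0.11 without replicate 1. HOXA4 and HOXC4, of the same group, did not pass, at 0.13 ± 0.18 and -0.22 ± 0.17 (-0.07 ± 0.068 and -0.39 ± 0.071 without replicate 1, where HOXC4 passed as lower).

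Among the genes that rose, HOXA5 was 36.4, 35.7 and 36.4 CPM in siNegative and 72.7, 57.7 and 57.6 CPM in siHNRNPH1 (log2 0.77 ± 0.16 SE, adjusted p = 0.035). HOXA2 was 3.84, 3.32 and 3.13 and then 8.19, 6.24 and 6.30 CPM (log2 0.99 ± 0.18 SE, adjusted p = 0.0286). In both, replicate 1 was the highest library, and without it the changes were 0.62 ± 0.036 and 0.82 ± 0.091. HOXA7 was 8.64, 8.86 and 8.23 and then 14.1, 14.1 and 13.9 CPM (log2 0.69 ± 0.11 SE, adjusted p = 0.0188). HOXB8, a trunk-level gene, was 11, 10.5 and 10.5 and then 17.7, 16.4 and 15.8 CPM (log2 0.61 ± 0.12 SE, adjusted p = 0.0311). Without replicate 1 the changes of HOXA7 and HOXB8 were 0.65 ± 0.060 and 0.53 ± 0.055. The groups did not overlap for any of these 4 genes, and HOXA7 differed little between its 3 siHNRNPH1 libraries.

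HOXA10 and HOXC10 missed the threshold with groups that did not overlap. HOXA10 was 64.7, 63.4 and 63.7 CPM in siNegative and 43.1, 50.1 and 50.3 CPM in siHNRNPH1 (log2 -0.45 ± 0.11 SE, adjusted p = 0.0572). HOXC10 was 18.3, 18.6 and 18.2 and then 14.3, 13 and 12.5 CPM (log2 -0.49 ± 0.12 SE, adjusted p = 0.0594). Without replicate 1 both passed as lower, with changes of -0.41 ± 0.035 and -0.58 ± 0.052. Of the genes that did not pass, HOXC12 had the lowest estimate (-1.28 ± 0.32) and HOXC5 the highest (1.11 ± 0.42), both on few counts. HOXA3 came close, at 0.45 ± 0.11 (SE, adjusted p = 0.0559). Without replicate 1 these 3 genes passed in the same directions, with changes of -1.04 ± 0.26, 0.75 ± 0.31 and 0.39 ± 0.054 at adjusted p of 0.00154, 0.0433 and 1.34e-06.

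Replicate 1 of HEK-293T siHNRNPH1 differed from the others over all genes, and what set it apart was not tested. It had its own HOX values as well. HOXA6 was 2.66, 14.5 and 12.7 CPM over the 3 replicates, HOXD10 18, 33.6 and 34.3 CPM, and HOXA13 17, 30.7 and 30.7 CPM. Replicate 1 was the low library in each, and HOXD9, at 23.6, 13.4 and 12.3 CPM, had it as the high library. HNRNPH1 itself was 234, 376 and 394 CPM, lowest in replicate 1. Without replicate 1, 26 of 38 HOX genes passed (68.4%, with 7 higher and 19 lower), beside 61.8% of all genes (30.5% higher and 31.3% lower), and the 8 genes above were among them. Without any single siNegative library, no HOX gene passed, with 12 or 13 at an unadjusted p under 0.05 and between 0 and 20 calls over all genes. HOXA5, HOXB8 and HOXD4 were not called without the filter on low counts. Without siHNRNPH1 replicate 2 HOXB9 alone remained, and without replicate 3 HOXA9 and HOXB9.

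The HEK-293T markers summed to 602 to 630.0 CPM in siNegative and 661 to 933 CPM in siHNRNPH1, with 3 of 7 higher (7 of 7 without replicate 1). Of all genes tested, 5.12% were higher, and 30.5% without replicate 1. The part of these markers in the HOX changes was not tested.

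**Figure D3:**
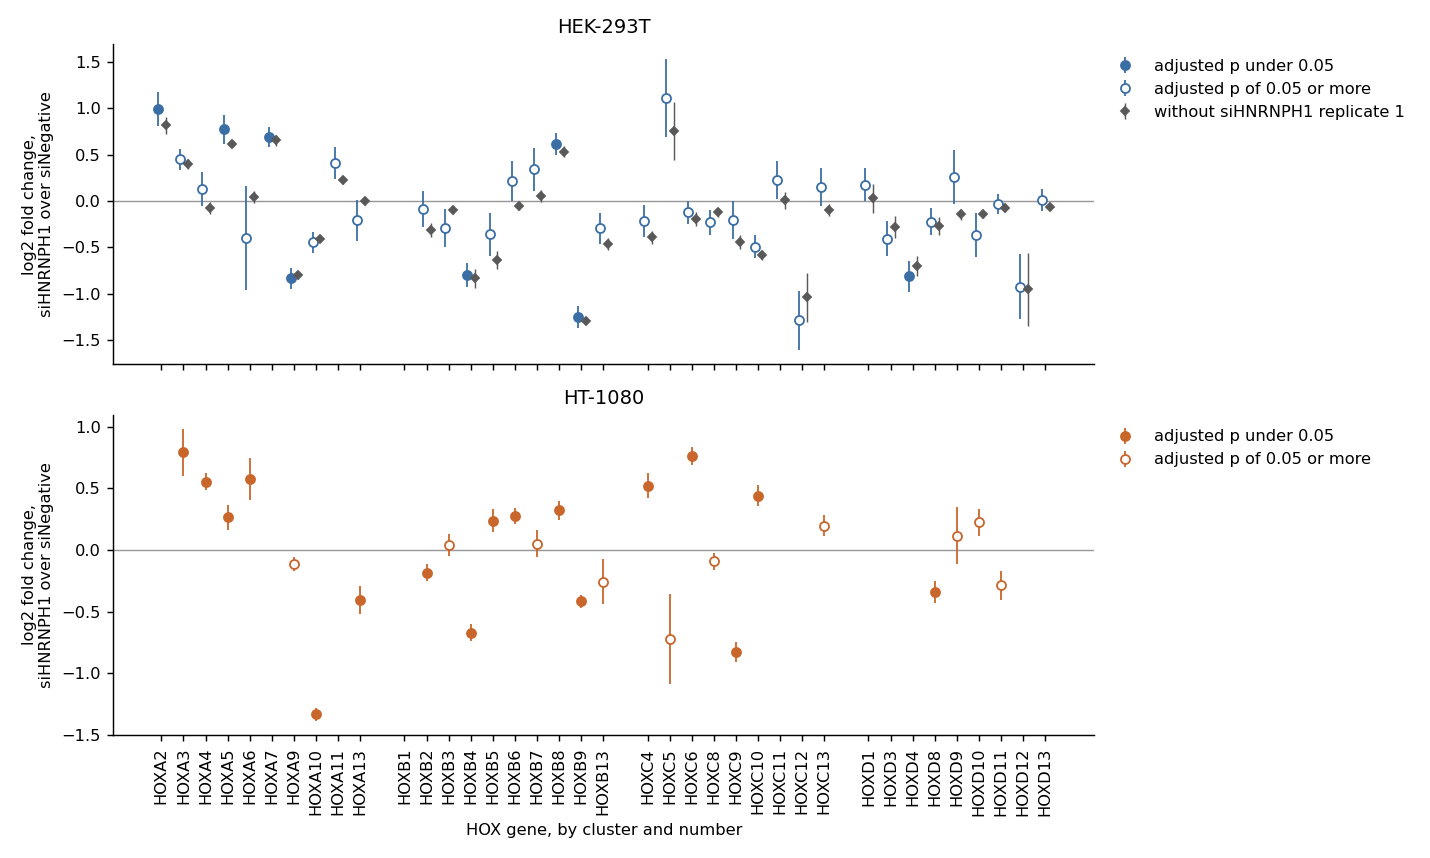
Log2 change from siNegative to siHNRNPH1 (y axis) of the HOX genes (x axis, by cluster and number) in HEK-293T and HT-1080, with standard errors, filled where the adjusted p is under 0.05 and, as grey diamonds, HEK-293T without siHNRNPH1 replicate 1. HOXB9 is the lowest filled point of HEK-293T at -1.25 and HOXA10 that of HT-1080 at -1.33.

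In HT-1080, siHNRNPH1 was followed by lower HOXA10, HOXC9 and HOXB4 and by higher HOXA3, HOXC6 and HOXA4. Of 28 HOX genes tested, 18 passed (64.3%), 11 higher and 7 lower, beside 65.3% of all 16145 genes tested (32.7% higher and 32.6% lower). The share of HOX genes was thus near that of all genes. Their median log2 change was 0.09, beside 0.01 over all genes. With 1 library left out it lay between 0.02, without siNegative replicate 1, and 0.20, without siNegative replicate 2. The other 11 HOX genes had too few counts to be tested. Those tested that did not pass were HOXA9, HOXB3, HOXB7, HOXB13, HOXC5, HOXC8, HOXC13, HOXD9, HOXD10 and HOXD11, with estimates from -0.72 ± 0.36 for HOXC5 to 0.23 ± 0.11 for HOXD10. In groups 4 to 8, 8 of 13 tested genes rose and 2 fell, and in groups 9 to 13, 1 of 11 rose and 4 fell.

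HOXA10 changed most. It was 72.0, 75.9 and 77.7 CPM in siNegative and 30.4, 31.2 and 32.2 CPM in siHNRNPH1, a log2 change of -1.33 ± 0.051 (SE, adjusted p = 3.25e-08), the only HOX gene tested there to change by more than 1 on that scale. HOXC9 was 13.3, 13.8 and 12.4 and then 7.33, 7.81 and 8.18 CPM (log2 -0.83 ± 0.081 SE, adjusted p = 1.26e-05). Both fell in every siHNRNPH1 library, with no overlap. HOXA9, which lies beside HOXA10, did not pass, at 79.0, 88.1 and 80.1 and 75.7, 81.9 and 82.1 CPM (log2 -0.11 ± 0.059 SE, adjusted p = 0.122).

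HOXB4 was 14.7, 14.3 and 15.1 CPM in siNegative and 9.76, 10.1 and 9.17 CPM in siHNRNPH1 (log2 -0.67 ± 0.069 SE, adjusted p = 1.92e-05), and HOXB9 35.7, 33.9 and 34.7 and then 27.6, 27.8 and 26.4 CPM (log2 -0.42 ± 0.051 SE, adjusted p = 6.41e-05). HOXA13 was 3.63, 3.82 and 3.44 and then 2.88, 2.82 and 2.91 CPM (log2 -0.41 ± 0.11 SE, adjusted p = 0.00998). HOXD8 was 6.26, 6.57 and 5.91 and then 5.07, 5.18 and 5.27 CPM (log2 -0.34 ± 0.091 SE, adjusted p = 0.00814). All 4 fell without overlap between the groups, HOXA13 and HOXD8 by the smaller steps.

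Among the genes that rose, HOXC6 was 10.6, 9.56 and 10.7 CPM in siNegative and 17.9, 19.3 and 17.6 CPM in siHNRNPH1 (log2 0.77 ± 0.073 SE, adjusted p = 1.1e-05). HOXA4 was 19.5, 22.1 and 20.3 and then 30.6, 32.4 and 32.6 CPM (log2 0.56 ± 0.065 SE, adjusted p = 4.65e-05). In both genes each siHNRNPH1 library exceeded each siNegative library.

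HOXC4 was 3.58, 3.56 and 3.93 and then 5.55, 5.76 and 5.37 CPM (log2 0.52 ± 0.10 SE, adjusted p = 0.00111). HOXA6 was 2.89, 2.06 and 3.47 and then 4.52, 4.04 and 4.64 CPM (log2 0.58 ± 0.17 SE, adjusted p = 0.0138), and HOXA3 0.879, 0.830 and 1.16 and then 1.68, 1.68 and 1.86 CPM (log2 0.79 ± 0.19 SE, adjusted p = 0.00435). HOXA3 was the lowest of the genes that rose, near 1 CPM. The RefSeq gene span of HOXA3 runs across HOXA4 to HOXA6, and those of HOXC4, HOXC5 and HOXC6 start at the same base. The strand setting of the counting is not given in the sources used here, so reads of these genes, of HOXB3 and HOXB4, of HOXD3 and HOXD4, of HOXA9 and HOXA10, and of antisense RNAs may have been split between them.

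HOXA5, HOXB2, HOXB5, HOXB6, HOXB8 and HOXC10 also passed the threshold, with log2 changes of 0.26, -0.19, 0.24, 0.28, 0.32 and 0.44. HOXA5, HOXB2 and HOXB5 each lost the call without at least 1 library: HOXA5 without siNegative or siHNRNPH1 replicate 1 or 3, HOXB5 without siNegative replicate 1 or 3 or siHNRNPH1 replicate 1 or 2, and HOXB2 without siNegative replicate 3 or any siHNRNPH1 replicate. These 3 and HOXA13 were also not called by DESeq2, and in a fit of all 12 libraries they, HOXA6, HOXB6 and HOXD8 were not called. The HT-1080 markers summed to 8165 to 8314 CPM in siNegative and 6700 to 6774 CPM in siHNRNPH1. Of the 7, 3 were higher and 3 lower, beside 32.7% and 32.6% of all genes tested. The part of these markers in the HOX changes was not tested.

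By cluster sum, HOXA went from 325 ± 5.47 to 312 ± 3.21 CPM (SD, n = 3) in HEK-293T and from 205 ± 7.47 to 183 ± 4.72 CPM in HT-1080. HOXB went from 199 ± 4.31 to 146 ± 9.89 CPM in HEK-293T and from 137 ± 3.40 to 131 ± 1.71 CPM in HT-1080. HOXC went from 73.8 ± 0.859 to 65.8 ± 5.05 CPM in HEK-293T and from 63.3 ± 1.64 to 73.2 ± 0.803 CPM in HT-1080, where its share of all HOX counts was 15 ± 0.148% and then 18.1 ± 0.216%. HOXD went from 174 ± 2.97 to 169 ± 1.18 CPM in HEK-293T and from 18.4 ± 1.03 to 18.3 ± 0.758 CPM in HT-1080. The HOXB sum of HEK-293T held HOXB9, which accounts for more of it than any other HOXB gene by counts.

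HOXB4 and HOXB9 fell and HOXA5 and HOXB8 rose in both lines, 4 of the 28 HOX genes tested in both. Of all 15010 genes tested in both, 2.62% passed as higher and 2.8% as lower in each line, 5.42% together, and 1.47% went opposite ways, as no HOX gene did. Without HEK-293T siHNRNPH1 replicate 1, 13 HOX genes passed in both lines. HOXA3, HOXA5 and HOXB8 then rose, HOXA10, HOXB2, HOXB4, HOXB9, HOXC9 and HOXD8 fell, and HOXB5, HOXC4, HOXC6 and HOXC10 went opposite ways, beside 15% of all genes higher and 16.7% lower in each line (31.7% together) and 15.2% opposite. The lines have separate control libraries. Of these 28 genes, 20 had the same sign of change in both lines, beside 55.7% of all genes, and 15 without HEK-293T siHNRNPH1 replicate 1, beside 60.1%. Across the 28 genes, which are not independent replicates, the log2 changes of the lines had a Pearson r of 0.229, beside 0.281 over all genes, and of 0.276 beside 0.318 without that library.

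The change itself differed between the lines for 6 of 38 HOX genes (15.8%), beside 19% of all 21276 genes tested (8.13% with a higher and 10.8% with a lower value in HT-1080). HOXA10 had the more negative change in HT-1080, with a log2 difference (HT-1080 minus HEK-293T) of -0.96 ± 0.11 (SE, adjusted p = 0.000163). For HOXA9 and HOXB9 the difference was 0.65 ± 0.12 (SE, adjusted p = 0.00304) and 0.76 ± 0.12 (SE, adjusted p = 0.00145), with the larger fall in HEK-293T. HOXC10 and HOXC6 were more positive in HT-1080, by 0.86 ± 0.16 (SE, adjusted p = 0.00365) and 0.81 ± 0.15 (SE, adjusted p = 0.00386). In HEK-293T HOXC6 was 7.44, 7.42 and 8.04 and then 7.53, 6.79 and 7.11 CPM, with overlapping groups (log2 -0.12 ± 0.12 SE, adjusted p = 0.586), and it passed as lower without replicate 1 (-0.19 ± 0.072, adjusted p = 0.0244). In HT-1080 HOXC10 was 7.40, 8.43 and 7.60 and then 11.2, 10.5 and 11.7 CPM and rose. Without HEK-293T siHNRNPH1 replicate 1, 17 of 37 HOX genes differed (45.9%, with 11 more positive and 6 more negative), beside 49% of all genes (22.7% and 26.4%), and the 5 named here were among them. Their differences were then -0.98 ± 0.062 for HOXA10, 0.64 ± 0.074 for HOXA9, 0.83 ± 0.066 for HOXB9, 0.97 ± 0.095 for HOXC10 and 0.91 ± 0.10 for HOXC6.

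**Figure D4:**
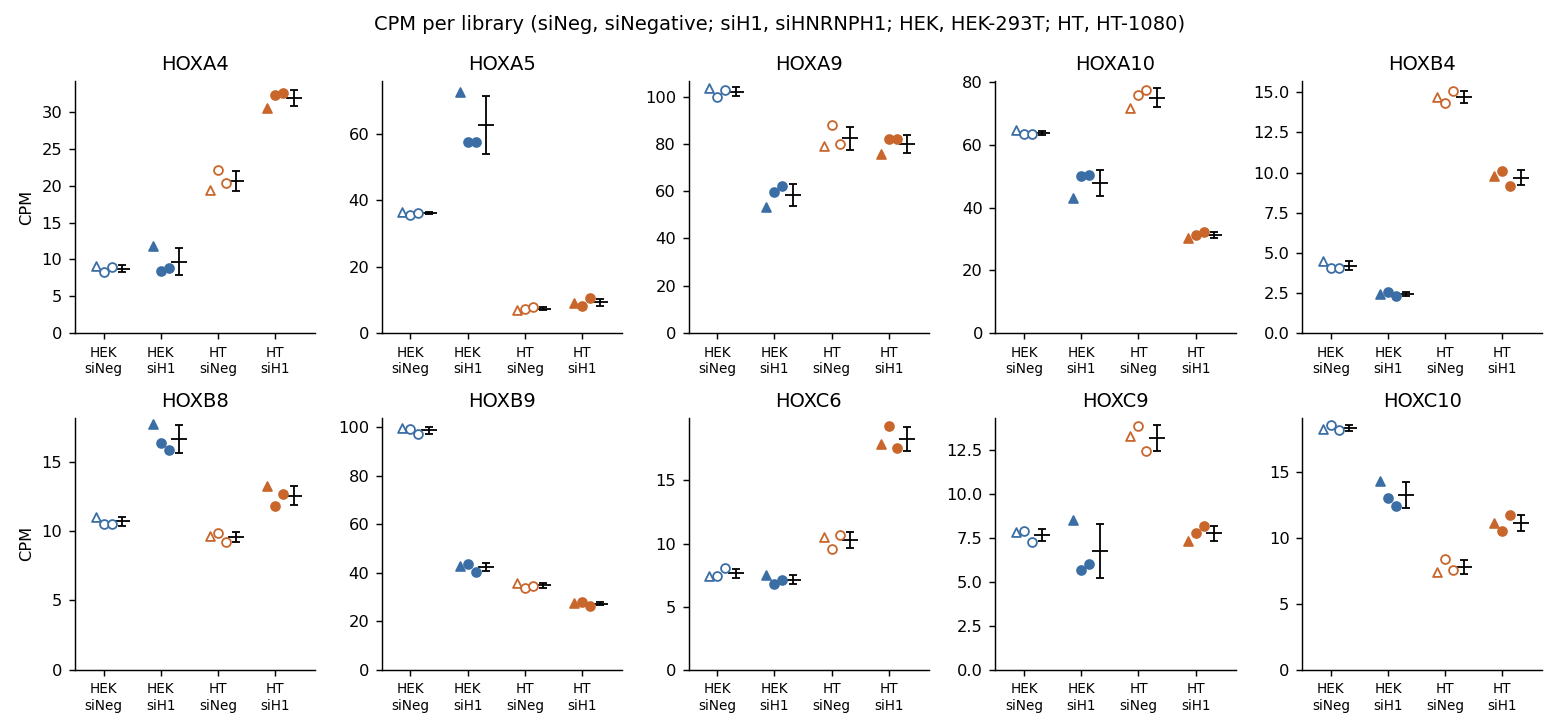
CPM (y axis) of HOXA4, HOXA5, HOXA9, HOXA10, HOXB4, HOXB8, HOXB9, HOXC6, HOXC9 and HOXC10 in each library, by line and siRNA (x axis; open siNegative, filled siHNRNPH1, triangles replicate 1, bars mean ± SD of 3). HOXB9 drops in both lines and further in HEK-293T, from a mean of 98.7 ± 1.48 to 42.2 ± 1.60 CPM, and HOXA10 is lower after siHNRNPH1 in HT-1080, from 75.2 ± 2.89 to 31.3 ± 0.899 CPM.

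At HOXA9, the transcript shares of the siRNA groups did not overlap in either line. The transcript ENST00000343483.7 held 44.5, 43.8 and 44.0% of HOXA9 counts in HEK-293T siNegative and 68.4, 47.8 and 47.9% in siHNRNPH1. In HT-1080 it held 72.1, 70.2 and 72.3% and then 82.4, 83.0 and 83.1%. ENST00000497089.1 held 47.6, 47.2 and 48.0% and then 30.4, 43.6 and 45.0% in HEK-293T, and 16.3, 20.6 and 16.5% and then 9.96, 7.60 and 9.74% in HT-1080. This held for both transcripts, and replicate 1 was the extreme library in HEK-293T. With 3 against 3 libraries, the exact two-sided permutation test cannot go below p = 0.1, which is 0.29 after Benjamini-Hochberg adjustment over the 29 tests of both lines.

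The shares of HOXA10 transcripts differed between the lines, with ENST00000283921.5 leading in both. ENST00000396344.4 held 32.1, 28.5 and 27.6% of HOXA10 counts in HEK-293T siNegative and 0% in all 6 HT-1080 libraries. ENST00000283921.5 held 48.6, 49.3 and 51.5% in HEK-293T siNegative and 78.6, 80.7 and 77.8% in HT-1080 siNegative. After siHNRNPH1 it held 72.3, 51.0 and 50.9% in HEK-293T, where the groups overlapped, and 76.1, 74.0 and 75.7% in HT-1080, where they did not.

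**Figure D5:**
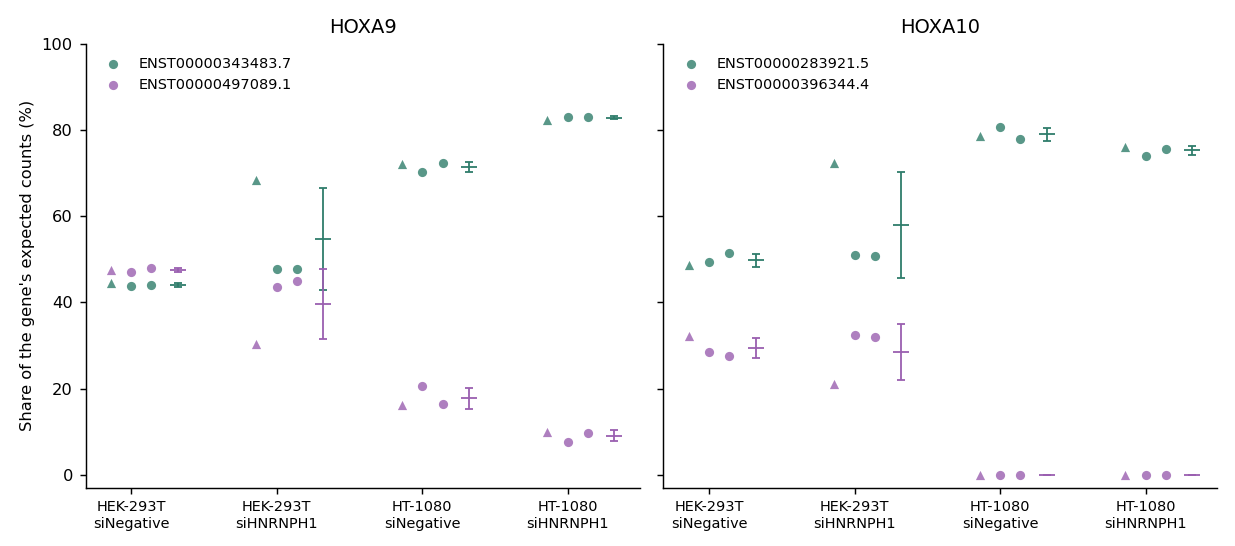
Share of the gene's counts (%, y axis) of HOXA9 and HOXA10 transcripts in each short-read library, by line and siRNA (x axis; triangles replicate 1, bars mean ± SD of 3). ENST00000396344.4 of HOXA10 lies at 0% in all 6 HT-1080 libraries and at a mean of 29.4% in HEK-293T siNegative.

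Over all HOX genes with at least 100 counts on average and at least 2 transcripts at 10% or more, the share of the leading transcript did not overlap between the siRNA groups in 6 of 16 genes in HEK-293T and in 4 of 13 in HT-1080. The share over all genes was 33.6% of 7956 (HEK-293T; 12.9% higher, 20.7% lower) and 32.1% of 6552 (HT-1080; 15.3% higher, 16.9% lower). The HT-1080 genes were HOXA9, HOXA10, HOXB6 and HOXC6, and the HEK-293T genes HOXA3, HOXA9, HOXB3, HOXB6, HOXD8 and HOXD11. At HOXB6, ENST00000225648.4 held 54.4 ± 3.42% and then 81.3 ± 8.38% in HEK-293T, and 40.7 ± 12.2% and then 24.8 ± 4.30% in HT-1080 (SD, n = 3), so its share was higher after siHNRNPH1 in one line and lower in the other. These genes were named after their values were seen. Shares from short reads are estimates that divide reads common to several transcripts.

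The IsoSeq pools, 1 per group, gave full-length transcript models and no replicate check. They held 43 HOX models in HEK-293T siNegative, 62 in HEK-293T siHNRNPH1, 62 in HT-1080 siNegative and 62 in HT-1080 siHNRNPH1, of 64705, 94847, 72186 and 68078 models in all. In that order, HOXA10 had 9, 16, 10 and 8 models and HOXA9 7, 9, 9 and 13. HOXA4 had 0, 0, 4 and 7, HOXB2 0, 0, 4 and 3, HOXA3 4, 5, 0 and 0, and HOXD13 4, 6, 1 and 1. A count of models is not a measure of expression, and a gene without a model may have been transcribed below the pool's depth.

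The 5′ ends of the HOXA10 models separated the lines. Within 1000 bases of the distal start, whose upstream sequence is given above, began 3 models in HEK-293T siNegative and 5 in HEK-293T siHNRNPH1, and 0 in either HT-1080 pool. Within 50 bases of the proximal start began 2 and 4 HEK-293T models and again 0 in HT-1080. All 10 and 8 HT-1080 models began inside the proximal start, the most upstream at chromosome 7 position 27173931 in siNegative and 27173899 in siHNRNPH1. Models that began inside the proximal start also made up 4 of 9 and 7 of 16 in the HEK-293T pools. GRCh38 patch releases share chromosome coordinates.

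Of the TALE cofactors, 1 of 9 tested genes fell in HEK-293T and none rose (median log2 change -0.04, beside 0.02 over all genes), where 10% of all genes tested passed. In HT-1080 4 of 7 rose and 2 fell (0.28, beside 0.01), where 65.3% of all genes passed. PBX2 fell in HEK-293T, from 125 ± 0.819 to 89.1 ± 8.66 CPM (log2 -0.52 ± 0.11 SE, adjusted p = 0.0422; -0.47 ± 0.031 without siHNRNPH1 replicate 1). In HT-1080 PBX3 fell from 19.9 ± 0.642 to 9.62 ± 0.662 CPM (log2 -1.11 ± 0.072 SE, adjusted p = 7.87e-07) and PBX2 rose from 58.1 ± 0.925 to 85 ± 1.76 CPM (log2 0.48 ± 0.042 SE, adjusted p = 6.17e-06).

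Of 18 Polycomb genes, 1 rose and 1 fell in HEK-293T (median 0.06, beside 10% of all genes called), and 6 rose and 9 fell in HT-1080 (-0.14, beside 65.3%). In HEK-293T these were RBBP7, a histone-binding subunit, from 377 ± 2.91 to 703 ± 24.5 CPM (log2 0.88 ± 0.12 SE, adjusted p = 0.0122; 0.82 ± 0.028 without replicate 1), and PHC1, a PRC1 subunit, from 56.3 ± 0.804 to 34.0 ± 7.0 CPM (log2 -0.76 ± 0.16 SE, adjusted p = 0.0383; -0.62 ± 0.037 without replicate 1). In HT-1080 EZH2, the main H3K27 methyltransferase, fell from 61.5 ± 1.27 to 18.6 ± 1.29 CPM (log2 -1.79 ± 0.059 SE, adjusted p = 1.22e-08). CBX2, a chromodomain subunit of PRC1, fell from 10.9 ± 0.796 to 3.79 ± 0.123 CPM (log2 -1.58 ± 0.092 SE, adjusted p = 4.02e-07), and JARID2, a PRC2 cofactor, rose from 39.2 ± 3.42 to 80.8 ± 1.95 CPM (log2 0.98 ± 0.062 SE, adjusted p = 6.85e-07). HOXA2, HOXA7, HOXA11, HOXC11, HOXC12, HOXD3, HOXD4 and HOXD13 had 10 counts or fewer in each HT-1080 siHNRNPH1 library, too few to be tested. From siNegative to siHNRNPH1, HOXA7 had 0, 1 and 2 and then 7, 5 and 2 counts. HOXA2 had 1, 1 and 3 and then 3, 3 and 9 counts, and HOXD13 5, 5 and 8 and then 10, 6 and 1. A link between the Polycomb changes and these genes was not tested.

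Of 12 MLL and COMPASS genes, none was called in HEK-293T by edgeR (2 at an unadjusted p under 0.05, and 1 called by DESeq2; median -0.09), and 3 rose and 4 fell in HT-1080 (median near 0, beside 65.3% of all genes called). There PSIP1, which tethers MLL to chromatin, fell from 119 ± 3.17 to 73.8 ± 1.42 CPM (log2 -0.75 ± 0.044 SE, adjusted p = 3.95e-07), and KDM6B, an H3K27 demethylase, rose from 32.4 ± 3.12 to 73.3 ± 1.98 CPM (log2 1.11 ± 0.067 SE, adjusted p = 4.72e-07). Of the CDX and other regulators, 1 of 8 rose and 1 fell in HEK-293T (median -0.09, beside 10% of all genes called). In HT-1080 4 of 7 rose and 2 fell (0.36, beside 65.3%). RARG, a retinoic acid receptor, fell in HEK-293T from 16.2 ± 0.111 to 7.54 ± 1.17 CPM (log2 -1.13 ± 0.16 SE, adjusted p = 0.0164; -1.29 ± 0.062 without replicate 1). GMNN fell in HT-1080 from 41.9 ± 1.98 to 15.7 ± 0.842 CPM (log2 -1.48 ± 0.065 SE, adjusted p = 7.45e-08).

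Of the noncoding RNAs in the clusters, 1 of 16 tested rose and 2 fell in HEK-293T (median -0.11, beside 10% of all genes called), and 4 of 6 rose and 1 fell in HT-1080 (0.53, beside 65.3%). HAGLR, which lies beside HOXD1, fell in HEK-293T from 12.4 ± 0.445 to 5.91 ± 0.794 CPM (log2 -1.10 ± 0.13 SE, adjusted p = 0.00929; -1.02 ± 0.065 without replicate 1), and HOXC13-AS from 1.55 ± 0.0373 to 0.508 ± 0.161 CPM (log2 -1.63 ± 0.28 SE, adjusted p = 0.0229; -1.94 ± 0.18 without replicate 1). In HT-1080 HOTAIRM1, a HOXA noncoding RNA, rose from 20.2 ± 2.08 to 31.0 ± 0.894 CPM (log2 0.55 ± 0.077 SE, adjusted p = 0.000163), and HOXA10-AS from 11.1 ± 1.06 to 16.4 ± 0.414 CPM (log2 0.50 ± 0.082 SE, adjusted p = 0.000433), where HOXA10 fell. Without HEK-293T siHNRNPH1 replicate 1, the HEK-293T counts of higher and lower genes were 3 and 3 for TALE cofactors and 6 and 7 for Polycomb. They were 5 and 3 for MLL and COMPASS, 3 and 2 for CDX and other regulators and 2 and 6 for noncoding RNAs. Of all genes, 61.8% were then called.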

How the data were processed

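RNA of 12 short-read libraries (3 per group) and 4 IsoSeq pools was used. The authors deposited, per line, RSEM expected counts per transcript (RSEM and GRCh38.p13 per the submitters' processing notes). The aligner, annotation release and strand setting are not given in the sources used here. The deposited IsoSeq files hold transcript models. For each gene the expected counts of its transcripts were added up, then rounded to whole numbers before testing. Columns left unmatched to a sample numbered 0. CPM used library totals of 27.3 M or more.

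Genes were filtered with edgeR's filterByExpr, scaled by TMM and tested with the edgeR 4.0.16 quasi-likelihood test (limma 3.58.1, R 4.3.3) with Benjamini-Hochberg adjustment over all genes, at an adjusted p under 0.05. Each line was fitted alone, the siNegative libraries of both lines together, and all 12 libraries for the difference of effects. DESeq2 1.42.0, other scalings and filters, a replicate block and each library left out were alternatives. Standard errors were taken from the F statistic of each test. The fits were tested on simulated data, on which the HT-1080 fit made false calls at over its nominal rate, the fit between lines slightly so, and the HEK-293T fit and that of the difference missed more of the changed genes than the others. Figures used Python 3.11.15 and matplotlib 3.10.9.

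The HOX genes and the gene lists were chosen with earlier results of these data known. Genes given per library were the 8 with most counts in a line, up to 6 per direction past the threshold with at least 50 counts on average, those near 0 in one line, and the 6 with the smallest p for the difference. Some genes that this rule names are counted in totals but are not reported here. List genes were examples, at most 3 per list and line by smallest p. P-values measure the spread between replicates that the labels call biological. Among the HT-1080 siHNRNPH1 libraries that spread was small, with chi-square values per degree of freedom of 1.972 to 2.417 between pairs. Promoters were from RefSeq on GRCh38.p14, with all 39 symbols looked up and 20 found. Protein sequences and transcript lengths were not used here.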

Additional observations from a re-analysis of the deposited data

Results flagged for a closer look

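The siRNA effect differed between the lines for the HOX genes below, by edgeR's quasi-likelihood test of the difference itself (Benjamini-Hochberg adjusted over all genes tested), given as HT-1080 minus HEK-293T on the log2 scale. HOXA10 had a difference of -0.957, with a log2 change of -0.45 ± 0.11 in the HEK-293T libraries and of -1.33 ± 0.051 in those of HT-1080. HOXB9 had 0.759, with -1.25 ± 0.11 and -0.42 ± 0.051, and HOXA9 0.650, with -0.83 ± 0.11 and -0.11 ± 0.059. HOXC10 had 0.859, with -0.49 ± 0.12 and 0.44 ± 0.086, and HOXC6 0.811, with -0.12 ± 0.12 and 0.77 ± 0.073. All 5 passed under each alternative run for this comparison.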

How the results depend on the processing

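HOX genes called in HEK-293T (8) became 5 without the filter on low counts, 1 with an absolute log2 change of at least 1, and 0 to 26 when 1 library was left out, 26 being without siHNRNPH1 replicate 1. With the replicate number as a block the count was 0 (13 at an unadjusted p under 0.05, and 0 over all genes). Same-numbered libraries had correlations of deviations of 0.117, 0.114 and 0.0326 in HEK-293T and 0.0275, 0.113 and 0.0614 in HT-1080. These were low but all positive, while most pairs with different numbers were negative. That contrast adds no evidence, as deviations from a group mean cancel out for each gene. Positive same-numbered pairs thus leave the other pairs negative on balance. HEK-293T pairs with different numbers had a lowest value of -0.121 and a highest of 0.0818. For such HT-1080 pairs the lowest was -0.123 and the highest 0.0579. Whether same-numbered libraries share more than a number was not tested. The block gave 18 in HT-1080, 34 between lines and 6 for the difference of effects. In HT-1080 (18) the count was 1 with the log2 limit and 15 to 21 with 1 library left out, 21 being without siNegative replicate 2. Between lines (36) it was 34 to 36. For the difference of effects (6) it was 10 with DESeq2 and 6 to 17 with 1 library left out, 17 without HEK-293T siHNRNPH1 replicate 1. Over all genes, the 1997 calls in HEK-293T became 3982 with DESeq2, 4550 in a fit of all 12 libraries (12 HOX genes each), 1302 without the filter, 1173 with the log2 limit, 0 to 20 without a siNegative library, and 12557, 245 and 639 without siHNRNPH1 replicate 1, 2 and 3. The 10538 in HT-1080 became 6237 (12 HOX genes) with all 12 libraries and 2514 with the log2 limit, the 17126 between lines 10519 with that limit, and the 4034 for the difference 2535 with the block and 9535 without HEK-293T siHNRNPH1 replicate 1.

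On TMM-scaled library sizes, ratios of summed CPM moved by more than 1 SD. HT-1080 over HEK-293T siNegative went from 0.629 to 0.735 for HOXA, 0.685 to 0.800 for HOXB, 0.858 to 1.00 for HOXC, 0.106 to 0.124 for HOXD and 0.548 to 0.640 for all HOX. In HEK-293T siHNRNPH1 over siNegative went from 0.960 to 0.985 for HOXA, 0.971 to 0.997 for HOXD and 0.897 to 0.921 for all. In HT-1080 it went from 0.891 to 0.844 for HOXA, 0.962 to 0.911 for HOXB, 1.16 to 1.09 for HOXC and 0.958 to 0.907 for all. The causes were not tested. Gene values under alternatives were compared for HNRNPH1 and the HOX genes called in the main fit. Of these values, 64 of 117 kept their call in HEK-293T, 218 of 246 in HT-1080, 464 of 475 between lines and 126 of 126 for the difference, and none changed direction. HOX genes not called in the main fit were not compared in this way. Of those, HOXD9 went from 0.26 to -0.14 and HOXA6 from -0.40 to 0.04 in HEK-293T without siHNRNPH1 replicate 1. At the HT-1080 depth, HOX genes under about 3 counts could not be told from 0.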

Other observations

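Of 8 tested genes that flank the clusters, 4 rose and 3 fell in HT-1080, beside 65.3% of all genes past the threshold (median log2 change 0.10, beside 0.01 over all genes). SKAP2, an adaptor gene beside the HOXA cluster, rose from 154 ± 9.73 to 280.4 ± 5.62 CPM (log2 0.80 ± 0.050 SE, adjusted p = 6.24e-07), and CALCOCO1, near HOXC, rose from 55.5 ± 2.09 to 99.3 ± 3.80 CPM (log2 0.77 ± 0.048 SE, adjusted p = 6.28e-07). LNPK, near HOXD, fell from 45.1 ± 1.88 to 34.2 ± 1.03 CPM (log2 -0.47 ± 0.052 SE, adjusted p = 3.33e-05). In HEK-293T none of 11 was called by edgeR (1 at an unadjusted p under 0.05, 0 called by DESeq2), beside 10% of all genes. Without siHNRNPH1 replicate 1, 2 rose and 5 fell, beside 30.5% of all genes higher and 31.3% lower.

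Of genes reported elsewhere as HOX targets, 3 of 7 tested rose and 2 fell in HT-1080, beside 65.3% of all genes called (median -0.02, beside 0.01 over all genes). ITGB3, an integrin subunit, rose from 7.78 ± 1.65 to 12.7 ± 0.714 CPM (log2 0.64 ± 0.13 SE, adjusted p = 0.0019), and SIX2, a kidney progenitor factor, fell from 22.4 ± 1.33 to 14.3 ± 0.984 CPM (log2 -0.71 ± 0.075 SE, adjusted p = 2.13e-05). In HEK-293T none of 12 was called by edgeR (2 at an unadjusted p under 0.05, 1 called by DESeq2), beside 10% of all genes. Without siHNRNPH1 replicate 1, 7 rose and 1 fell, beside 30.5% of all genes higher and 31.3% lower.

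Between HOXB9 and HOXB13 on chromosome 17, outside the HOX gene spans, the HT-1080 IsoSeq pools held 4 models (siNegative) and 3 (siHNRNPH1), and the HEK-293T pools 0. Models that also reached HOXB9 were left out of this count. A HEK-293T siNegative model of this kind began at position 48646830 and an HT-1080 siNegative one at 48646837. On the strand opposite to the HOXA genes there were 21 and 18 models in the HEK-293T pools and 15 and 17 in those of HT-1080.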
